A study of Mus musculus with 3 samples.

Results

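The genes described are the 38 Hox genes listed for the 4 clusters of the mouse, taken by their symbol from the 32285 genes of 3 deposited spatial RNA libraries. All 38 were found once each, 10 in the Hoxa cluster, 10 in Hoxb, 9 in Hoxc and 9 in Hoxd. At least 1 UMI (unique molecular identifier, which stands for 1 captured RNA molecule) was counted for 35 of them in the E11.5 section, 38 in the E12.5 section and 36 in the E13.5 section. The study sectioned frozen axial skeleton of mouse embryos and measured it with Visium, a slide whose barcoded spots capture the RNA above them. Sections were 10 µm thick, spots 55 µm wide and 100 µm apart from centre to centre. The labels give 1 section for each of the embryonic stages E11.5, E12.5, and lastly E13.5, with no treatment named, so the stages have no replicate and a stage cannot be told apart from the embryo, the plane of the section or the stretch of the body that it covers. The tissue is labelled as bone, and the sources used here do not give genotype, strain, sex or the number of embryos. The title of the E11.5 section carries an added word, zhengpei, that the other titles lack and the labels do not explain. The position of a spot in the tissue was not used here, so the body axis enters the values below only through the Hox genes themselves.

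Hox genes encode homeodomain transcription factors that give cells along the head-to-tail axis their regional identity. They lie in clusters, numbered by paralogue group from the 3′ end to the 5′ end, and low-numbered genes are expressed from the hindbrain and neck backward while high-numbered genes are expressed only in the trunk, the pelvis and the tail, an order known as collinearity. In the vertebral column they set the form of neck, rib-bearing, lumbar and sacral vertebrae, and in the spinal cord they set the kinds of motor neuron at each level. The groups are given below as 5 bands: 1-3 (7 genes, hindbrain and upper neck), 4-5 (7 genes, neck), 6-8 (8 genes, thorax), 9-10 (7 genes, lower thorax and lumbar region) and 11-13 (9 genes, sacrum and tail).

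The 4 clusters lie on chromosome 6 (Hoxa, 52162417 to 52260880), chromosome 11 (Hoxb, 96194316 to 96368254), chromosome 15 (Hoxc, 102921131 to 103036856) and chromosome 2 (Hoxd, 74668225 to 74765142) of mouse build GRCm38 in RefSeq, the coordinates running from the first to the last listed gene. Sequence before the annotated start is shown for 4 genes that behaved differently in the comparison of tissues below: Hoxd3 was among the genes called higher in neural spots, Hoxb4 was higher there in 2 sections without a call, and Hoxa10 and Hoxd9 were lower there at E12.5. Each run is the 250 bases before the start, 5′ to 3′ on the strand of the gene, with matches to a searched motif in capitals.
Hoxb4: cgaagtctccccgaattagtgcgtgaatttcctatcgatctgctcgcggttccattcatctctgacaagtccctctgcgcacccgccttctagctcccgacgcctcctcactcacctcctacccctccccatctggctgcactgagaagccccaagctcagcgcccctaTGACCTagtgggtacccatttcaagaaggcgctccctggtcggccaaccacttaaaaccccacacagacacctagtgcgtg
Hoxd3: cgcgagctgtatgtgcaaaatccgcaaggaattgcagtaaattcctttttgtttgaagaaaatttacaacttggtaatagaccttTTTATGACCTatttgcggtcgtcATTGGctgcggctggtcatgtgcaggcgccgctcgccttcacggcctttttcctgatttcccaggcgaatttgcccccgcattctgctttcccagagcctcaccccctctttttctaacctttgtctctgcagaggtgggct
Hoxa10: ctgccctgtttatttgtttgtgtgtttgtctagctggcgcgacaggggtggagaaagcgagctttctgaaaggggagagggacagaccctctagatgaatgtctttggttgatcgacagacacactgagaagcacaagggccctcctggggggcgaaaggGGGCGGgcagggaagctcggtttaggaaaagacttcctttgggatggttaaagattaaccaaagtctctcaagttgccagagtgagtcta
Hoxd9: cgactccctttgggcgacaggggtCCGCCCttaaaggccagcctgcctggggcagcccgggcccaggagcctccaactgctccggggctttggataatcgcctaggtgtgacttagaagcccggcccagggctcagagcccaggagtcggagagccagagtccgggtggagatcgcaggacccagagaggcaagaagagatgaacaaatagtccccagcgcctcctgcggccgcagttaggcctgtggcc
They lie at chr11:96318017-96318266 (plus strand), chr2:74711743-74711992 (plus), chr6:52240855-52241104 (minus) and chr2:74697513-74697762 (plus). The motifs searched on both strands were the CAAT box (CCAAT), the TATA box (TATAAA), the GC box (GGGCGG), a CDX site (TTTATG), a HOX-PBX site (TGATNNAT) and a retinoid half-site (AGGTCA). The Hoxb4 capitals are a retinoid half-site on the reverse strand. In Hoxd3 a CDX site overlaps a retinoid half-site on the reverse strand, and the second run of capitals is a CAAT box on the reverse strand. The Hoxa10 and Hoxd9 capitals are GC boxes, in Hoxd9 on the reverse strand, and Hoxa10 has another listed promoter that is not shown.

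RefSeq promoters were found for 22 of the 38 genes, 24 promoters in all and most of them of Hoxa and Hoxd, against 32851 promoters of all genes. The CAAT box stood in 58.3% of the Hox promoters and 33.8% of all, the GC box in 41.7% and 32.7%, and the retinoid half-site in 25.0% and 14.02%. The CDX site was in 20.8% of Hox promoters and 10.8% of all, the HOX-PBX site in 16.7% and 7.68%, and the TATA box in 16.7% and 12.4%. Hox promoters held between 2 and 35 CpG each, beside a median of 6 over all promoters, and their median GC content was 58.6% against 52.4%. Matches to letters are a description and show no binding, and no test was made of these shares.

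The sections covered 1563, 1014 and 1365 spots with 44359910, 25490744 and 28754555 UMIs, here and below in the order of the stages. Spots with at least 1000 UMIs were used, 1561, 1014 and 1360 of them. The 3 libraries share 345 spot barcodes, which name positions on the slide and not cells. A spot can hold several cells, and fewer cells of a type and less RNA per cell cannot be told apart. All intervals below are exact 95% intervals that cover counting error only.

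Hox RNA was most abundant in the E12.5 section in every cluster, and the balance between low-numbered and high-numbered genes differed between sections. The 38 genes together made 697, 1305 and 472 CPM (UMIs per 1000000 UMIs of the spots used) in the 3 sections. At E12.5, 15 of the 34 genes with at least 50 UMIs were at least 2-fold higher than at E11.5, where 6.47% of all genes passed that fold, and 0 were at least 2-fold lower, where 3.4% of all genes did. All 15 belonged to groups 6 and above. From E12.5 to E13.5, 19 of 32 were at least 2-fold lower (8.06% of all genes) and 0 higher (10.5% of all genes). Between E11.5 and E13.5, 13 of 33 were at least 2-fold lower (7.96% of all genes) and 6 higher (14.6% of all genes). The 6 were Hoxa10, Hoxc10, Hoxd10, Hoxa11, Hoxc11 and Hoxd11, all from the groups that pattern the lumbar and sacral region. As a share of the Hox genes, the 6 are near the share of all genes that were higher. With 1 section per stage these folds compare sections and have no test. The sections also differed in other tissue they held. Over all spots, heart markers summed to 1049, 4.16 and 815 CPM and erythroid markers to 41290, 8091 and 349 CPM. The part of this in the Hox folds was not tested.

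**Figure D1:**
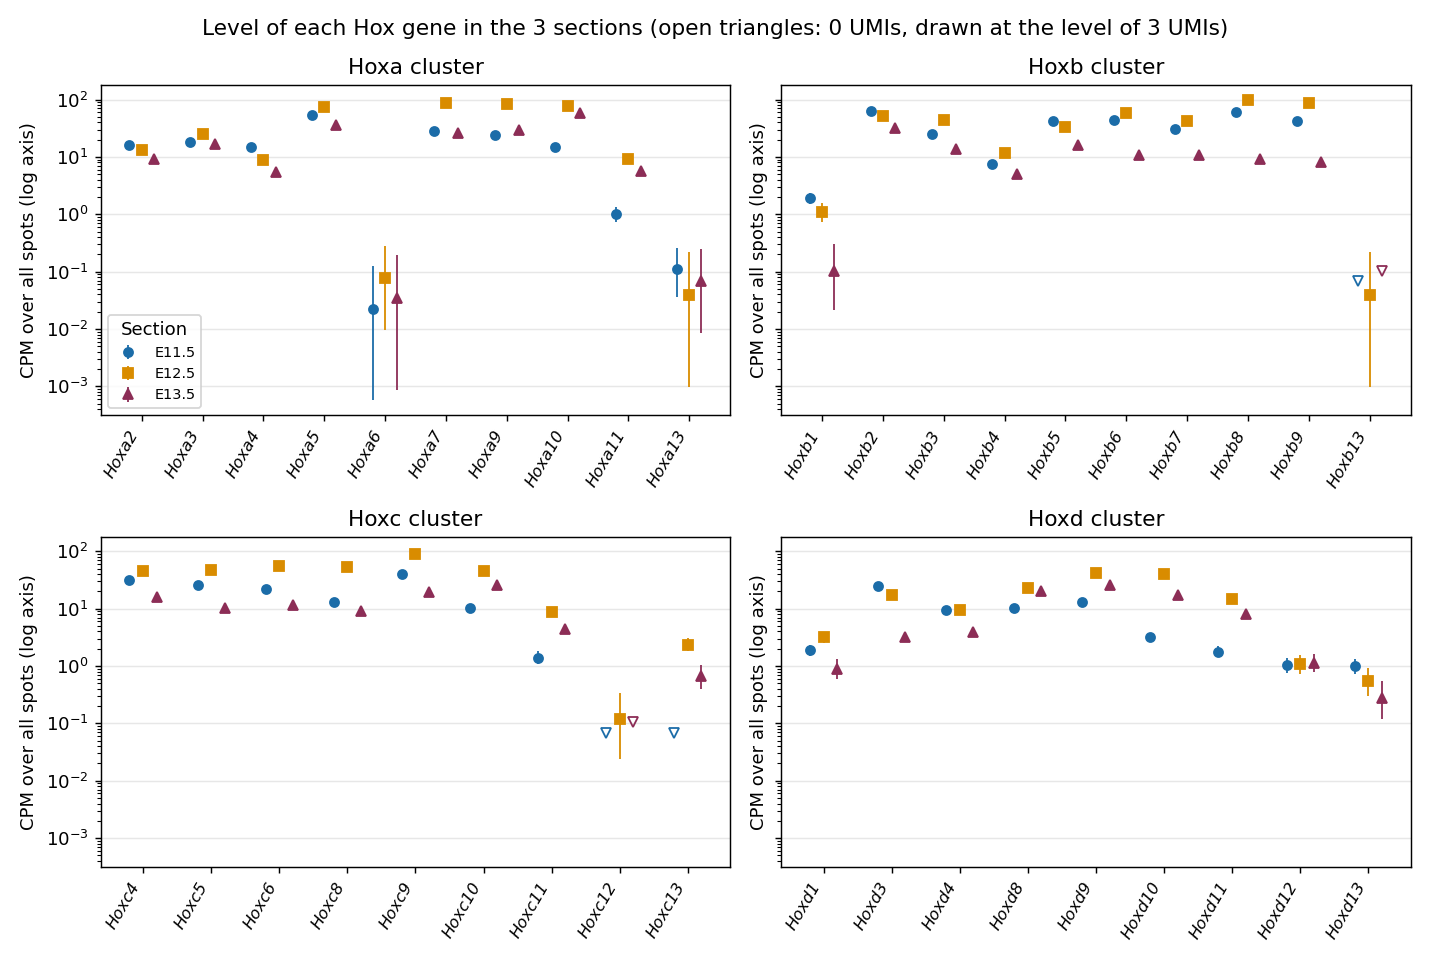
Level of each of the 38 Hox genes over all spots of the 3 sections, in CPM on a log axis, by cluster and ordered by paralogue group, with exact 95% intervals of counting error. Open triangles mark genes with 0 UMIs, drawn at the level of 3 UMIs. The E12.5 points are highest for most genes from group 6 upward, and the E13.5 points are lowest for Hoxb2 to Hoxb9.

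Among the genes of groups 1-3, which pattern the hindbrain and the branchial arches, Hoxb2 stood at 62.2 CPM (95% interval 59.9 to 64.6) in the E11.5 section and at 52.1 and 31.5 CPM in the later ones. Hoxa2, which sets the identity of the second branchial arch, stood at 16.1, 13.1 and 9.29 CPM. Hoxd3 stood at 25.05, 17.1 and 3.23 CPM, a ratio of E13.5 to E11.5 of 0.129 (0.103 to 0.160). Hoxb3 and Hoxa3 were highest at E12.5, with 25.5, 43.9 and 13.9 CPM for Hoxb3 and 18.1, 24.95 and 16.5 for Hoxa3, so these genes did not share the order of Hoxa2 and Hoxb2. Hoxb1, a marker of 1 hindbrain segment, was rare, with 84, 28 and 3 UMIs, and Hoxd1 had 83, 81 and 26. The 7 genes of groups 1-3 made 21.6%, 11.9% and 16.0% of all Hox UMIs.

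The neck genes of groups 4-5 held 183, 230 and 93.4 CPM in the 3 sections. Hoxa5, which acts in neck vertebrae and in the lung, stood at 53.1, 72.7 and 36.6 CPM. Hoxb5 was highest at E11.5, with 41.6, 33.4 and 16.2 CPM. Hoxc4 and Hoxc5 were highest at E12.5, with 31.02, 46.02 and 15.8 CPM for Hoxc4 and 25.3, 48.1 and 10.4 CPM for Hoxc5. The remaining genes of these groups differed among themselves: Hoxa4 was lower in each later section (14.8, 8.75 and 5.46 CPM), Hoxd4 was level between the first 2 sections (9.63 and 9.42, then 3.86 CPM), and Hoxb4 was highest at E12.5 (7.48, 11.8 and 5.04 CPM).

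Groups 6-8, the thoracic genes, stood at 209, 417 and 98.2 CPM, and the E13.5 level was 0.235 of that at E12.5 (0.226 to 0.245). Hoxb8 had 60.5 CPM (58.3 to 62.9) in the first section, 98.4 (94.6 to 102) in the second and 9.08 (8.01 to 10.2) in the last. Its neighbour Hoxb9, of group 9, ran in parallel with 42.5, 88.4 and 7.9999 CPM. These were the lowest ratios of E13.5 to E12.5 among genes with at least 200 UMIs at E12.5, 0.0923 and 0.0905. Hoxc6 and Hoxc8, which take part in setting brachial and thoracic identity, stood at 22.1, 55.5 and 11.4 CPM and at 12.8, 53.2 and 9.08 CPM. Hoxd8 differed from them, with 10.4, 23.3 and 20.5 CPM, so that its E13.5 level stayed close to that of E12.5.

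Groups 9-10 made a larger share of Hox RNA in each later section, 21.3%, 35.7% and 39.1% of Hox UMIs. Hoxa10, which like the other group 10 genes suppresses rib formation in the lumbar region, had 14.6 CPM (13.5 to 15.8), 77.1 (73.7 to 80.6) and 57.5 (54.8 to 60.3). Hoxc10 had 10.5, 44.9 and 26.4 CPM, and Hoxd10 3.16, 40.995 and 17.6 CPM. In all 3 genes of group 10 the E13.5 level lay between the other sections. Of the group 9 genes, Hoxd9 followed them with 13.1, 42.6 and 25.7 CPM, whereas Hoxc9, which defines thoracic motor neurons, was lower at E13.5 than at E11.5 (39.8, 88.8 and 19.6 CPM). Hoxa9 stood between these patterns with 24.5, 82.9 and 29.9 CPM.

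The sacral and tail genes of groups 11-13 were scarce in every section, at 6.31, 36.8 and 20.3 CPM for all 9 together. Hoxd11 had 1.78, 14.9 and 7.9999 CPM, Hoxa11 had 0.992, 9.02 and 5.63 CPM, and Hoxc11 had 1.398, 8.63 and 4.49 CPM. Group 11 genes specify sacral vertebrae and parts of the kidney and forearm. Hoxc13 was at 0 UMIs at E11.5, which allows up to 0.0676 CPM at 3 UMIs, and had 60 UMIs at E12.5 and 19 at E13.5. Hoxd12 had 46, 28 and 33 UMIs, and Hoxd13, a gene of digits and the genital region, 44, 14 and 8. Hoxa13 (5, 1 and 2 UMIs), Hoxc12 (0, 3 and 0), Hoxb13 (0, 1 and 0) and Hoxa6 (1, 2 and 1) were at or near the detection limit. The span of Hoxa6 lies within that of Hoxa3 in RefSeq, and 10 of the 38 genes have a span that overlaps another of them (Hoxa3 with Hoxa4, Hoxa5 and Hoxa6, Hoxb3 with Hoxb4, Hoxd3 with Hoxd4, Hoxd10 with Hoxd11). Their counts are uncertain there, because how reads in a shared span were treated is not given in the sources used here.

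By cluster, Hoxb gave the largest share of Hox RNA at E11.5 and Hoxa at E13.5. The Hoxb cluster made 45.3% of Hox UMIs in the first section (44.7% to 45.9%), 32.8% in the second and 22.4% in the last (21.7% to 23.1%). The Hoxa cluster made 24.6%, 28.8% and 39.7%, Hoxc 20.5%, 26.6% and 20.7%, and Hoxd 9.61%, 11.7% and 17.2%. Between E11.5 and E13.5 the ratio of the summed level was 0.334 for Hoxb (0.321 to 0.348) and 0.683 for Hoxc (0.653 to 0.715), while it was 1.09 for Hoxa (1.06 to 1.13) and 1.21 for Hoxd (1.15 to 1.28).

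To compare neural with skeletal tissue, spots of each section were called neural where Tubb3, a tubulin of neurons, was in the top 10% per UMI, and skeletal where Col2a1, the collagen of cartilage, or Pax1, a factor of the sclerotome from which vertebrae form, was in the top 10%. This gave 156, 102 and 117 neural and 207, 148 and 200 skeletal spots, with 1, 0 and 19 spots in both left out. Neural spots were deeper, with medians of 30835, 32736.5 and 21730 UMIs against 21715, 20644.5 and 9818.5. Neuron markers summed to 5888, 5615 and 2330 CPM in neural spots and 493, 150 and 114 in skeletal ones. Cartilage markers summed to 122, 230 and 2630 CPM in neural spots and 2772, 8649 and 22153 in skeletal ones, so at E13.5 the neural spots also held cartilage RNA and fewer neuron transcripts. None of the 5 neuron or 5 cartilage markers was at 0 in either class.

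Summed Hox RNA was higher in neural than in skeletal spots in the first 2 sections, led by the Hoxb cluster, and level between them in the last. It stood at 1666 against 588 CPM at E11.5, a ratio of 2.83 (2.71 to 2.96), 2256 against 1058 at E12.5 (2.13, 2.05 to 2.22) and 626 against 655 in the last section (0.956, 0.890 to 1.03). At E11.5 the interval of the ratio lay above 1 for 22 of 32 genes with a UMI in either class (21.7% of all genes) and below 1 for 0 (26.2% of all genes). At E12.5 it lay above 1 for 24 of 34 (23.2% of all genes) and below 1 for 4 (24.5% of all genes), which were Hoxa10, Hoxc10, Hoxd9 and Hoxd10. At E13.5 it lay above 1 for 7 of 34 (17.0% of all genes) and below 1 for 7 (12.7% of all genes). These intervals set 1 section's spots against each other and do not cover the spread between embryos.

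**Figure D2:**
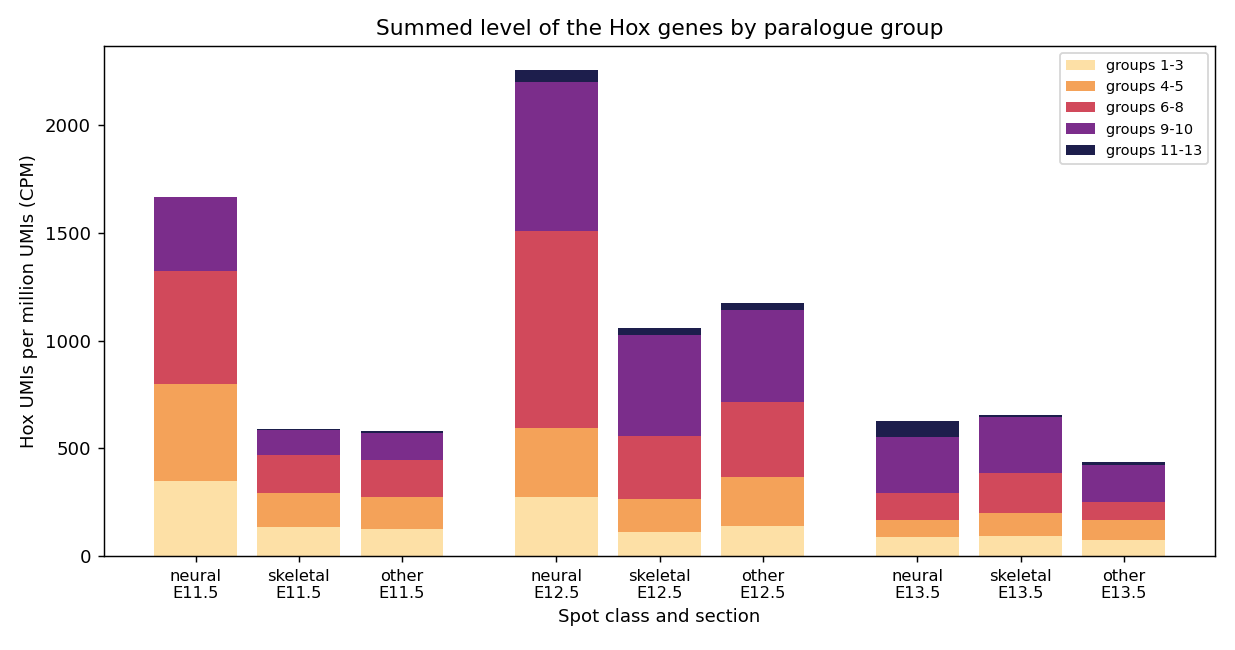
Summed Hox level in CPM for neural, skeletal and other spots of each section, each bar stacked by paralogue band. Neural spots stand above the other classes at E11.5 (1666 CPM) and E12.5 (2256 CPM) but not at E13.5 (626 against 655 CPM in skeletal spots), and groups 11-13 are widest in the neural spots of E13.5. Bars carry no error because there is 1 section per stage.

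Over the 3 sections, edgeR's quasi-likelihood test on UMIs summed per section and class, with the section as a block, called 5 of the 30 Hox genes tested higher in neural spots (Benjamini-Hochberg adjusted p under 0.05), where 18.3% of 13659 genes were called, and 0 lower, where 18.5% were. The share of Hox genes called higher is near that of all genes. Without an adjustment, 13 of the 30 had a p under 0.05, as had 6613 of the 13659 genes. DESeq2 called 9 of 33 Hox genes higher and 0 lower, and 2947 and 2564 of 15917 genes. The 8 genes not tested for low counts were Hoxa6, Hoxa13, Hoxb1, Hoxb13, Hoxc12, Hoxc13, Hoxd12 and Hoxd13. Of the 30, 25 had a positive and 5 a negative fold, with a median log2 fold of 0.94 against -0.05 over all genes tested. Leaving out E13.5, the test called 20 higher and 1 lower of 31 (26.2% and 26.9% of all genes). Leaving out E11.5, it called 0 of 30 Hox genes, and 445 higher and 75 lower of 13246 genes in all. Leaving out E12.5, it also called 0 of 30, and 435 higher and 60 lower of 13803 genes in all. Calls thus fell for Hox genes and for all genes alike when E11.5 or E12.5 was left out. Without the section as a block, or with only the neural and skeletal sums in the fit, 0 Hox genes were called higher. The spread behind the p-values is shared by all 9 sums, so the other spots enter it beside the neural and skeletal ones. It is a spread among these 3 sections, each from another stage, and no replicate embryos enter it.

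The 5 called genes were 3 of the Hoxb and 2 of the Hoxd cluster, all from groups 1 to 5. This limit to low groups holds only with all 3 sections. When E13.5 was left out, Hoxb6 to Hoxb9, Hoxa7, Hoxa9, Hoxc6, Hoxc9 and Hoxd8 were also among the genes called higher. Hoxd3 had 67.6 against 19.1 CPM, 36.7 against 6.71 and 6.09 against 5.302, a log2 fold of 1.72 (SE 0.40, edgeR adjusted p = 0.0167). Neural spots were higher in all 3 sections, though by little more than 1-fold at E13.5 (1.15, 0.502 to 2.69). Hoxb5 had 126 against 26.2, 94.8 against 18.5 and 16.6 against 17.7 CPM (log2 fold 1.77, SE 0.47, edgeR adjusted p = 0.0262). Hoxb2 had 148 against 44.4, 110 against 30.7 and 33.3 against 34.9 CPM (log2 fold 1.29, SE 0.38, edgeR adjusted p = 0.0342). Hoxb5 and Hoxb2 were thus higher in neural spots in 2 of 3 sections and level in the third. Hoxb3, with 62.6 against 26.6, 78.7 against 33.2 and 20.3 against 19.9 CPM, had a log2 fold of 0.93 (SE 0.28, edgeR adjusted p = 0.0392). Hoxd1, a gene also known from sensory neurons, had few UMIs, 11 against 5, 19 against 2 and 13 against 0 (log2 fold 2.77, SE 0.86, edgeR adjusted p = 0.0412), and was higher in neural spots in 3 of 3 sections. The interval of the Hoxd1 ratio held 1 at E11.5 (2.21, 0.709 to 8.13) and lay above 1 at E12.5 and E13.5. Without E11.5 the log2 fold of Hoxd1 was 4.15 and no longer passed (edgeR adjusted p = 0.109).

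The Hoxb genes of groups 6 to 9 differed between neural and skeletal spots in every section but did not pass the test over the 3 sections. Hoxb8 was at 165 CPM in neural and 39.99 in skeletal spots at E11.5 (ratio 4.13, 3.52 to 4.86) and at 308 against 40.3 at E12.5 (7.66, 6.37 to 9.29). At E13.5 it was at 14.2 against 24.7 CPM (0.574, 0.365 to 0.892), from 35 and 56 UMIs. Hoxb9 gave ratios of 4.61, 6.63 and 0.585, Hoxb6 of 4.37, 5.97 and 0.596 and Hoxb7 of 3.76, 4.92 and 0.545. The 4 genes were therefore on opposite sides in the last section and the first 2. Their log2 folds over the sections were 1.63 (Hoxb8, SE 0.64, edgeR adjusted p = 0.0849), 1.69 (Hoxb9, SE 0.62, adjusted p = 0.0684), 1.55 (Hoxb6, SE 0.58, adjusted p = 0.0739) and 1.30 (Hoxb7, SE 0.56, adjusted p = 0.108). Without E13.5, Hoxb8 and Hoxb9 had log2 folds of 2.52 and Hoxb6 of 2.39, each past the test (edgeR adjusted p between 0.00016 and 0.000265).

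In skeletal spots the levels of these Hoxb genes differed less between sections than in neural spots. Hoxb6, Hoxb7 and Hoxb8 stood at 25.5, 22.4 and 39.99 CPM in skeletal spots at E11.5, 29.1, 23.3 and 40.3 at E12.5 and 23.9, 26.1 and 24.7 at E13.5. In neural spots the E13.5 level of Hoxb8 was 0.0861 of that at E11.5 (0.0595 to 0.121), against 0.619 (0.451 to 0.837) in skeletal spots. For the whole Hoxb cluster the same ratios were 0.159 (0.142 to 0.178) and 0.805 (0.715 to 0.906). The neuron, ganglion and cord markers moved between the same neural spots: sensory ganglion markers summed to 242, 510 and 1153 CPM and markers of spinal progenitors to 86.8, 128 and 34.5 CPM, with 2 of the 5 progenitor genes at 0 at E13.5. Their part in the Hox difference was not tested.

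The same split by class applied to the folds between sections. In neural spots 5 of 28 Hox genes were at least 2-fold higher at E12.5 than at E11.5 (3.71% of all genes), Hoxb9, Hoxc8, Hoxc11, Hoxd10 and Hoxd11, and Hoxa4 alone was lower (0.884%). From E12.5 to E13.5, 2 of 29 were higher, Hoxa10 and Hoxd9 (14.5%), and 20 lower (10.3%). Between the first and the last section 5 of 27 were higher, Hoxa10, Hoxc10, Hoxd9, Hoxd10 and Hoxd11 (18.5%), and 20 lower (8.52%). In skeletal spots the fold between the first 2 sections was past 2 upward for 10 of 27 genes (3.82%), all of group 5 and above, and downward for 4 (2.98%), Hoxa2, Hoxa4, Hoxc5 and Hoxd3. From E12.5 to E13.5, 0 of 23 were higher (8.36%) and 6 lower (5.28%). Between the first and the last section 6 of 24 were higher, Hoxa9, Hoxa10, Hoxc10, Hoxd8, Hoxd9 and Hoxd10 (1219 of 10562 genes), and 4 lower, Hoxa4, Hoxc5, Hoxc6 and Hoxd3 (5.41%). Hoxa10, Hoxc10, Hoxd9 and Hoxd10 were therefore higher at E13.5 than at E11.5 in both classes. In neural spots the share of Hox genes higher between these sections was near that of all genes.

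A split of the neural spots, chosen after the values were seen, gives the Hoxb levels by the kind of neural tissue. Neural spots with more ganglion than progenitor UMIs numbered 93, 64 and 110, and those with more progenitor UMIs 46, 31 and 2, so the E13.5 neural class was almost wholly of the first kind. The ganglion list holds Prph, which motor neurons also express. In the first kind Hoxb8 was at 184, 248 and 14.6 CPM and the Hoxb cluster at 835, 978 and 133. In the second kind Hoxb8 was at 142 and 397 CPM at E11.5 and E12.5, and the Hoxb cluster at 855 and 1438. The part of the kind of neural tissue in the Hoxb difference was not tested.

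**Figure D3:**
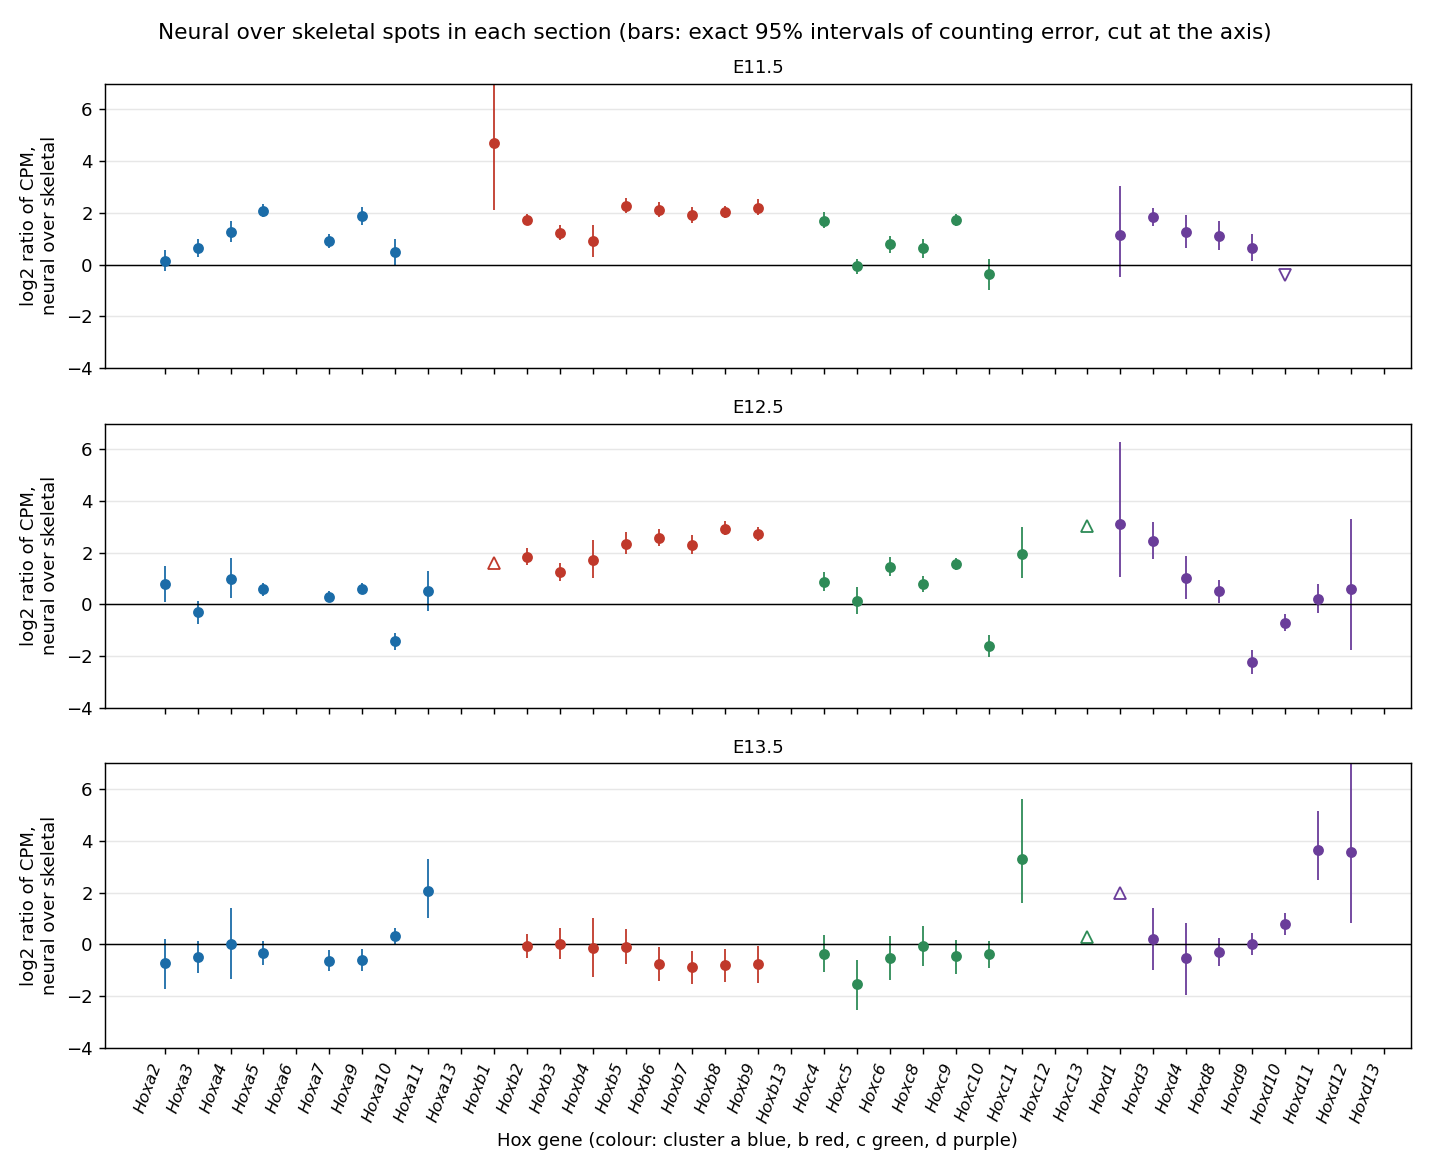
Log2 ratio of the level in neural over skeletal spots for each Hox gene, 1 panel per section, with exact 95% intervals of counting error cut at the axis and clusters in colour. Open triangles are bounds taken against 3 UMIs where 1 class had none, and genes with at most 3 UMIs in each class, where 1 class had 0, are not drawn. Hoxb2 to Hoxb9 lie above 0 at E11.5 and E12.5 and at or below 0 at E13.5, where Hoxa11, Hoxc11 and Hoxd11 lie above.

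Hoxd9 and the genes of group 10 did not follow Hoxb. Hoxa10 stood at 17.1 CPM in neural and 12.4 in skeletal spots at E11.5 (ratio 1.38, 0.976 to 1.97), at 33.2 and 88.8 at E12.5 (0.373, 0.297 to 0.466) and at 87.7 and 69.8 at E13.5 (1.26, 1.02 to 1.55). Hoxd9 gave 17.5 against 11.1, 15.6 against 72.2 and 39.4 against 38.9 CPM, and at E12.5 its ratio of 0.215 (0.157 to 0.292) was the lowest of any Hox gene. Both genes were thus higher in skeletal spots in the E12.5 section alone. Hoxc10 stood at 9.48 against 12.4, 18.8 against 56.9 and 24.4 against 31.8 CPM in neural and skeletal spots. Its ratios were 0.768 (0.509 to 1.15), 0.330 (0.244 to 0.442) and 0.766 (0.534 to 1.09), so only the E12.5 interval lay below 1. Over the sections Hoxc10 came nearest to a call as lower in neural spots (log2 fold -0.78, SE 0.27, edgeR adjusted p = 0.0598). Without E13.5 Hoxc10 passed, at -1.04 (edgeR adjusted p = 0.0342). Hoxc9, of the same group as Hoxd9, went with Hoxb at E11.5 and E12.5, with 128 against 38.7 and 193 against 65.5 CPM, and was at 15.02 against 20.8 at E13.5.

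Hoxa and Hoxc genes of lower groups varied in how far the tissues differed. Hoxa5, a neck gene, stood at 142 against 33.7, 104 against 69.003 and 30.4 against 37.997 CPM in neural and skeletal spots. Hoxa7 gave ratios of 1.87, 1.23 and 0.642 and Hoxa9 of 3.64, 1.53 and 0.653, so in both the ratio was smaller in each later section. The neural level itself was 64.9 CPM at E11.5 and 127 at E12.5 for Hoxa7, and 67.9 and 129 for Hoxa9. The skeletal level was 34.8 and 103 CPM for Hoxa7, and 18.6 and 84.3 for Hoxa9. Hoxa2 and Hoxa3 had log2 folds of 0.14 (SE 0.34) and 0.04 (SE 0.30) over the sections, edgeR adjusted p = 0.765 and 0.930. Hoxc5 differed from its neighbour Hoxc4: it stood at 40.7 against 42.5, 21.1 against 19.2 and 5.68 against 16.3 CPM, while Hoxc4 had 78.4 against 24.1, 52.8 against 28.8 and 13.4 against 17.2. Hoxc6 and Hoxc8 had ratios of 1.71, 2.76 and 0.697 and of 1.55, 1.72 and 0.949.

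Groups 11-13 had no UMI in neural spots at E11.5 and the highest neural over skeletal ratio of the 5 bands at E13.5. All 9 genes together had 0 UMIs in the 156 neural spots and 6 in the 207 skeletal spots at E11.5, 190 and 92 at E12.5 (ratio of CPM 1.898, 1.47 to 2.46) and 176 and 19 in the last section (8.51, 5.29 to 14.5). Hoxd11 was at 19.4 against 16.6 CPM at E12.5 and 33.7 against 2.65 at E13.5 (12.7, 5.599 to 35.6). Hoxc11 was at 14.97 against 3.83 and 12.99 against 1.33 CPM (3.905, 2.05 to 8.05, and 9.801, 3.07 to 50.02), and Hoxa11 at 11.4 against 7.99 and 16.6 against 3.98 CPM. Hoxc13 had 27 UMIs in neural and 0 in skeletal spots at E12.5, at least 8.27-fold higher against 3 UMIs, and 4 and 0 at E13.5. The UMI counts behind several of these ratios are under 10 in skeletal spots, and over the 3 sections none of the 3 genes of these groups that could be tested passed: Hoxd11 had a log2 fold of 1.47 (SE 1.01, edgeR adjusted p = 0.285, and 0.20 without E13.5 and 3.03 without E12.5), Hoxc11 of 2.35 (SE 0.96, 0.0948) and Hoxa11 of 0.94 (SE 0.72, 0.337). The neural spots held 2.47% of their Hox UMIs in groups 11-13 at E12.5 and 11.4% at E13.5.

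Proteins that act with Hox factors or on their genes were taken from lists. Of all 13659 genes tested in the fit of the 3 sections, 18.3% were called higher and 18.5% lower in neural spots. Of 9 TALE-class cofactors, homeodomain partners that bind DNA with Hox proteins, 5 were higher and 1 lower in neural spots by edgeR. Meis3 had a log2 fold of 2.23 (SE 0.30, edgeR adjusted p = 0.00308), Pbx4 of 1.90 (SE 0.25, 0.00309), Pbx3 of 1.78 (SE 0.47, 0.0260), Meis2 of 1.502 (SE 0.38, 0.0223) and Meis1 of 0.96 (SE 0.29, 0.0374), and Pknox2 fell by 0.81 (SE 0.22, 0.0274). Meis3 stood at 239, 175 and 57.6 CPM in neural and 49.2, 23.96 and 22.98 in skeletal spots, so unlike Hoxb8 it was above its skeletal level in all 3 sections. Of 7 tested long noncoding RNAs of the Hox clusters, 2 were higher, Hoxb5os (1.31, SE 0.29, edgeR adjusted p = 0.0142) and Hotairm1 (0.91, SE 0.25, 0.0272), and 0 lower. Hoxb5os overlaps Hoxb5 and Hoxb6 in RefSeq, and the counts of such neighbours are uncertain because the sources used here do not give how reads were assigned.

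Upstream regulators of Hox genes, which include retinoic acid receptors and the enzymes that degrade retinoic acid, gave 2 higher and 3 lower of 8 tested: Rarb (1.10, SE 0.34, edgeR adjusted p = 0.0412) and the signal Gdf11 (0.87, SE 0.19, 0.0140) were higher, and Rarg (-2.70, SE 0.51, 0.00918), Cyp26a1 (-2.80, SE 0.50, 0.00740) and Cyp26b1 (-1.73, SE 0.32, 0.00810) were lower in neural spots. Polycomb proteins, which keep Hox genes silent, gave 3 higher (Cbx7, Jarid2 and Phc2) and 3 lower (Cbx2, Eed and Ezh2) of 15, and Trithorax and demethylase proteins, which hold them active, 0 higher and 2 lower (Men1 and Wdr5) of 8. Beside these counts, 18.3% of all genes were called higher and 18.5% lower, and the Polycomb shares are near both. The median log2 folds were 0.96 for the cofactors, 0.86 for the noncoding RNAs, 0.04 for the regulators, 0.15 for Polycomb and -0.39 for Trithorax, beside -0.05 over all genes tested.

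Over single spots, most Hox genes were positively correlated at E11.5, some sets were opposed at E12.5 and most pairs were close to 0 in the last section. The median Pearson correlation of log2(UMIs per 10000 + 1) over pairs of Hox genes with at least 100 UMIs was 0.273 at E11.5 (325 pairs of 26 genes over 1561 spots), 0.0909 at E12.5 (406 pairs of 29 genes, 1014 spots) and 0.0134 in the last section (378 pairs of 28 genes, 1360 spots). Over all pairs of genes with at least 100 UMIs the medians were 0.0052, 0.0076 and 0.0102. The spots of a section share library, depth and neighbours, so these values are a description. With each spot thinned to 5000 UMIs the medians were 0.135, 0.0205 and 0.00731.

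Within a cluster, correlation was higher between neighbours than between distant genes. Pairs of the same cluster 1 paralogue group apart had medians of 0.425, 0.316 and 0.110 in the 3 sections, and pairs of the same cluster 5 or more groups apart 0.0714, 0.0174 and -0.00285. Members of the same paralogue group in different clusters had 0.389, 0.194 and 0.0784, close to the values of neighbours at E11.5. The highest pair was Hoxb6 with Hoxb8 at E11.5 (0.820), Hoxb8 with Hoxb9 at E12.5 (0.759) and Hoxd10 with Hoxd11 in the last section (0.404). Hoxd10 and Hoxd11 overlap in the annotation, and how reads in their shared span were treated is not given in the sources used here. At E12.5 the lowest pairs were Hoxa10 with Hoxc8 (-0.407) and Hoxa10 with Hoxc6 (-0.401), whereas Hoxd9 with Hoxd10 reached 0.709. Pairs of groups 6-8 with groups 9-10 had a median of -0.111 at E12.5 against 0.166 at E11.5, although Hoxb8 with Hoxb9 is among them.

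**Figure D4:**
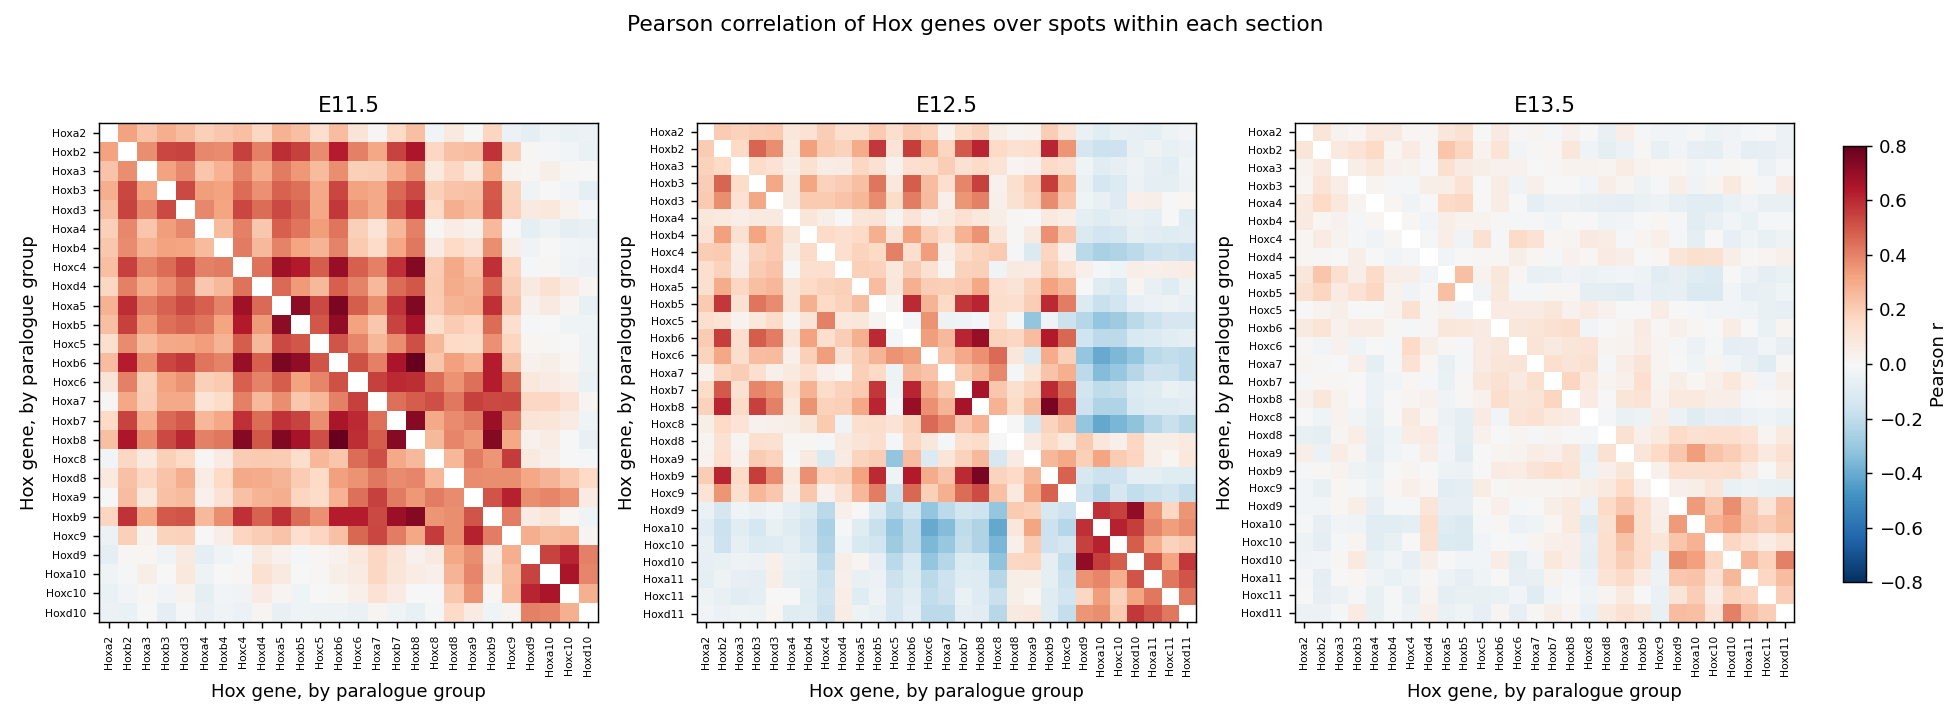
Pearson correlation over spots between Hox genes with at least 100 UMIs, ordered by paralogue group, 1 panel per section, on a colour scale that ends at 0.8 in both directions. Values from Hoxa2 to Hoxc9 are mostly positive at E11.5, Hoxd9 and groups 10 to 11 form a block of their own at E12.5 with mostly negative values towards groups 4 to 8, and the E13.5 panel is pale (median 0.0134).

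Counting each spot by the most 5′ band it held, after thinning to 5000 UMIs in the 1551, 998 and 1251 spots deep enough, set the sections apart. No Hox UMI was found in 33.01% of spots in the first section (30.7% to 35.4%), 1.603% in the second and 13.3% in the last. Without thinning, 87.7%, 99.8% and 96.6% of the spots had at least 1 Hox UMI. The most 5′ band was 9-10 in 28.4%, 61.7% and 44.4% of the thinned spots and 11-13 in 1.87%, 12.02% and 8.95%. In neural spots band 11-13 was reached in 0 of 155, 15 of 100 and 24 of 112 spots, and in skeletal spots in 0 of 207, 12 of 147 and 6 of 134. At E11.5 a count of 0 in neural spots allows up to 2.35% and in skeletal spots up to 1.77% by the exact interval.

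**Figure D5:**
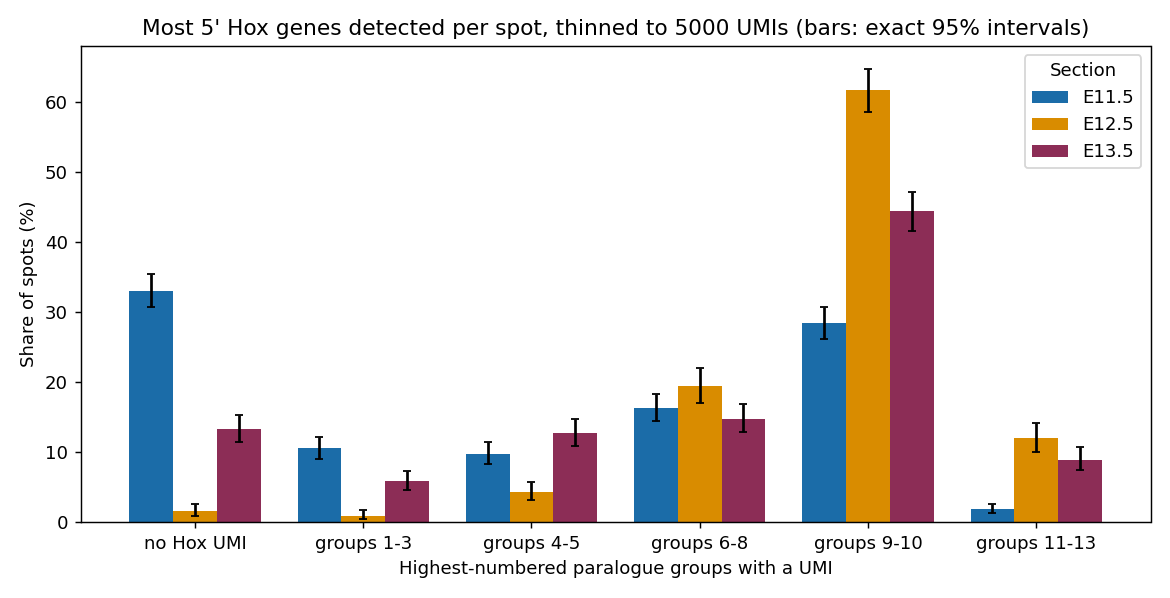
Share of spots by the highest-numbered paralogue band with at least 1 UMI, each spot thinned to 5000 UMIs, for the 3 sections, with exact 95% binomial intervals. Spots without any Hox UMI are most frequent at E11.5 (33.01%), and spots that reach groups 9-10 are most frequent at E12.5 (61.7%).

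How often neighbouring bands were found in the same spot differed between sections. Of spots with groups 11-13, 86.2% (25 of 29) also held groups 9-10 in the first section, 90.8% (109 of 120) in the second and 78.6% (88 of 112) in the last, against 28.98%, 70.2% and 48.7% of the other spots. At E12.5 spots with groups 11-13 held groups 6-8 less often than other spots, in 45.8% (36.7% to 55.2%) against 71.6% (68.5% to 74.6%). At E11.5 groups 9-10 came with groups 6-8 in 76.4% of spots (356 of 466) against 23.4% of spots without groups 9-10. The same shares were 66.8% against 73.3% at E12.5 and 42.1% against 32.4% at E13.5.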

How the data were processed

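For each section the authors deposited raw UMI counts per gene and spot. The file headers name Space Ranger 1.2.0 as the software, and the submitters' processing notes list STAR and mm10. How spots were selected and reads assigned is not given in the sources used here. The stage was taken from each section's title. Each stage has 1 section. Hox genes were found by symbol, and all 38 IDs carried the same symbol in the reference name table. The members and lists were chosen with earlier results of these data known.

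Spots with at least 1000 UMIs were used. UMIs were summed per section and spot class (neural, skeletal, other) into 9 sums and tested in edgeR 4.0.16 under R 4.3.3 (filterByExpr, TMM, glmQLFit, glmQLFTest, section as a block), with Benjamini-Hochberg adjustment over all genes. The SE is the log2 fold divided by the root of F. Sums are paired by section because they are taken from 1 piece of tissue. Stages were compared as CPM over all UMIs of the spots used, with exact Poisson or conditional binomial 95% intervals, at least 50 UMIs and a 2-fold ratio. A count of 0 was set to 3 UMIs for bounds. Correlations used log2(UMIs per 10000 + 1), and thinning drew 5000 UMIs per spot. Python 3.11.15 with scipy 1.17.1 was used, and the fit was tested on simulated data.

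All 38 genes could be named, with full statistics for those past the test and for up to 8 with the largest positive folds. Among the genes with a negative fold, full statistics are given for Hoxc10 alone. Genes outside the family came from fixed lists, where they passed the test or described a class, or from the 5 genes most correlated with each band. Alternatives were another tool (DESeq2 1.42.0), scaling, filter, class rule, depth, the section block, and leaving out each section. A further choice, leaving out spots by a marker list, is not reported here.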

Additional observations from a re-analysis of the deposited data

Results flagged for a closer look

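In 9 of the 30 Hox genes with a UMI in each section, the exact interval of the neural over skeletal ratio lay above 1 in at least 1 section and below 1 in another, which was so for 709 of 16147 genes (4.39%). Each ratio is from 1 section, and the difference between sections was not tested. The stage, the embryo and the plane of the section cannot be told apart.

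In the Hoxb cluster the first 2 sections lay on the neural side and E13.5 on the skeletal side. Hoxb6 had ratios of 4.37, 5.97 and 0.596 in the order of the stages, and Hoxb7 of 3.76, 4.92 and 0.545. Hoxb8 had 4.13, 7.66 and 0.574, and Hoxb9 had 4.61, 6.63 and 0.585. In the Hoxa cluster Hoxa7 had 1.87, 1.23 and 0.642 and Hoxa9 had 3.64, 1.53 and 0.653.

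The other 3 genes lay on the skeletal side at E12.5. Hoxa10 had 0.373 at E12.5 and 1.26 at E13.5, Hoxd10 had 0.616 and 1.72, and Hoxd9 had 1.58 at E11.5 and 0.215 at E12.5.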

How the results depend on the processing

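The Hox calls were lost without the section block of the fit: with no replicate block, edgeR called 0 Hox genes higher and 0 lower, and 1160 and 616 genes in all, against 5, 0, 2494 and 2523 with it. With only the neural and skeletal sums it called 0 Hox genes higher, and 1411 and 829 genes in all. Leaving out each section gave between 0 and 20 Hox genes higher and 0 and 1 lower, and 435 to 3540 genes higher and 60 to 3644 lower in all. DESeq2 called 9 Hox genes higher. With skeletal spots by Col2a1 alone 8 were higher and 0 lower (2375 and 2297 of 13147 genes), by Pax1 alone 2 and 1 (2332 and 2335 of 13130), and with neural spots by Stmn2, Elavl3 and Dcx 4 and 1 (2416 and 2367 of 13734). The 1 lower was Hoxc10 in both.

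Of the single genes, leaving out each section gave log2 folds from -0.58 to 0.43 for Hoxa10, from -0.69 to 0.030 for Hoxc5, from -0.98 to 0.35 for Hoxd9 and from -0.67 to 0.47 for Hoxd10, against negative values with all sections. Hoxd11 ranged from 0.20 to 3.03 and Hoxd1 from 2.05 to 4.15, and Hoxd1 passed the test in these fits only without E13.5. The sign also turned by Col2a1 alone for Hoxa10 (0.35) and Hoxd10 (0.50), and for Hoxd10 in the top 5% of spots (0.054).

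The ratio of summed Hox RNA at E13.5 to E11.5, 0.677 over all spots, was 0.376 in neural spots, 1.11 in skeletal spots and 0.646 without globin genes. Genes at least 2-fold lower numbered 20 in neural and 4 in skeletal spots, against 13. Thinning to 5000 UMIs moved the E11.5 median correlation to 0.135 and the shares of spots with a Hox UMI to 67.0%, 98.4% and 86.7%. In spots with at least 5000 UMIs the shares were 100% at E12.5 and 98.6% at E13.5. The causes were not tested. Depth limits Hoxa6, Hoxa13, Hoxb13 and Hoxc12, which had too few UMIs for any comparison.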

Other observations

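The genes outside the family whose level over spots was most like that of each band changed from section to section. At E11.5 groups 1-3 were most like Mir124-2hg, the host of a neuronal microRNA (Pearson 0.66), and groups 6-8 most like the antisense transcript Hoxb5os (0.70), while Tubb3 stood at 0.48 and 0.51. Groups 11-13 were most like Pitx1, a factor of the hindlimb bud (0.31), with Tubb3 at -0.14. At E12.5 groups 6-8 were most like Scrt2, a factor of newborn neurons (0.61), groups 11-13 like Hoxa11os (0.66) and then Mnx1, a factor of motor neurons (0.33), and groups 9-10 like Ubb, a ubiquitin gene (0.51). These are descriptions over 1561 and 1014 spots of 1 section each, with at least 200 UMIs per gene.

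At E13.5, over 1360 spots, groups 6-8 were most like Pax1 (0.34), the sclerotome gene that was at 0.06 and -0.14 for the same groups in the earlier sections. Groups 9-10 were most like Zic1 (0.48) and groups 11-13 like Sncg, a synuclein of sensory and motor neurons (0.45). Groups 4-5 were most like Sftpc, a surfactant gene of the lung epithelium (0.33), with Adh1 (0.33) and Tbx4, a factor of the hindlimb and lung mesenchyme (0.27), among the first 5. Tubb3 was at 0.10 for groups 6-8 and -0.04 for groups 4-5 in that section. Pax1, Tubb3 and Col2a1 also defined the spot classes, so their values are no independent support.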
